A study of Mus musculus with 12 samples.

Results

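Wfdc15b, Ppp1r1a and Lrrc66 are 3 mouse genes whose mRNA was lower in cystic kidneys than in noncystic ones and higher again in cystic kidneys that lacked the miR-17 motif of Pkd2. They were chosen by symbol for this pattern, so both of those differences are given below as descriptions, with no test. They are 3 of the 54532 genes in the counts table and 3 of the 24642 genes that passed the cutoff on low counts. The data are RNA-seq of whole kidneys from 12 C57BL/6 mice (C57BL/6 J in the methods of the study) aged 18 days, in 4 groups of 3. The study asked what happens to polycystic kidneys when the microRNA miR-17 can no longer bind the 3′-UTR of Pkd2, the gene for polycystin-2.

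All 12 mice carried an RC allele of Pkd1, a hypomorphic missense allele of the gene for polycystin-1. Their second Pkd1 copy was floxed in all 4 groups by the methods of the study, though the labels write Pkd1_RC for noncystic and Pkd1F_RC for cystic mice. Noncystic mice (Pkd1 RC/F) had no Cre, so that this copy stayed intact. Cystic mice carried KspCre, a Cre driven by the cadherin-16 promoter, which acts in the distal nephron and collecting ducts and not in every kidney cell. The presence of Cre and the loss of the second Pkd1 copy therefore cannot be told apart. Within each genotype, 3 mice were Pkd2 +/+ and 3 were Pkd2 Δ17/Δ17 (Pkd2_UTR_DD in the labels), homozygous for a germline CRISPR deletion of the miR-17 motif in the Pkd2 3′-UTR. The deletion was present in every cell of those animals.

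Wfdc15b encodes a small secreted protein with a whey acidic protein (WAP) four-disulfide core, a fold shared with protease inhibitors such as Slpi, and its mRNA is known from the loop of Henle in mouse kidney. Ppp1r1a encodes inhibitor-1, which blocks protein phosphatase 1 once protein kinase A has phosphorylated it, and which the phosphatase calcineurin switches off again. Lrrc66 encodes a membrane protein with leucine-rich repeats whose function is little known. The thick ascending limb, the part of the loop of Henle that reabsorbs sodium chloride through the transporter Slc12a1 and secretes uromodulin, is among the tubule segments in which the Ksp promoter is active.

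MicroRNAs pair with mRNAs mainly through their seed, bases 2 to 8. The mature miR-17 sequence and the reference Pkd2 site are shown because the deletion removes this pairing. The seed, and the bases of the site that are complementary to it, are in capitals, and both sequences run 5′ to 3′.
mmu-miR-17-5p: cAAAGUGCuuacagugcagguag
Pkd2 3′-UTR site: ttataattttctGCACTTTaatttatttt
The microRNA (RefSeq) lies on the plus strand of GRCm38.p6 at chr14:115043684-115043706. The Pkd2 site lies on the plus strand of GRCm38 at chr5:104503809-104503837, with its seed match 133 bases after the stop codon. Where exactly the deletion starts and ends was not analysed here.

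The annotated 3′-UTRs of the 3 genes contain no GCACTTT. In the first 141 bases, the length of the Wfdc15b 3′-UTR, 1.37% of 15669 tested genes had this match. For the 665 bases of Ppp1r1a the share was 6.68% of 10885 genes, and for the 438 bases of Lrrc66 it was 4.47% of 12635 genes. Most genes lack such a match in windows this short, so its absence does not set the 3 genes apart.

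The 3 genes lie on different chromosomes, all on the minus strand of GRCm38, and overlap no other annotated gene, so the unstated strand setting of the counting does not touch them. Wfdc15b (ENSMUSG00000018211) spans chr2:164214454-164221660 in 4 exons and encodes 80 residues. Ppp1r1a (ENSMUSG00000022490) spans chr15:103530279-103538003 in 7 exons and encodes 171 residues. Lrrc66 (ENSMUSG00000067206) spans chr5:73606642-73632526 in 5 exons and encodes 872 residues. Lrrc66 shares its chromosome with Pkd2 but lies 30.8 Mb away.

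The libraries held 18800307 to 24453033 counts. The edited gene was used to check the labels of the Pkd2 genotype alone. Pkd2 stood at 193.8 to 219 CPM (counts relative to library size, after TMM, the trimmed-mean scaling of edgeR) in noncystic Pkd2 +/+ mice. In noncystic Pkd2 Δ17/Δ17 mice it stood at 270.5 to 286. It stood at 213 to 233 CPM in cystic Pkd2 +/+ mice and at 307 to 337 in cystic Pkd2 Δ17/Δ17 mice. The deletion groups lay above their Pkd2 +/+ groups with no overlap, as did 5.69% of all genes tested in noncystic and 8.79% in cystic kidneys. In noncystic kidneys edgeR called no gene higher with the deletion, Pkd2 included. The labels give no sex, and Xist, the RNA of the inactive X chromosome, was at 430.6 CPM or more in 6 mice and at 7.74 CPM or less in the other 6, with both kinds in every group. The high mice were 19 (noncystic Pkd2 +/+), 22 and 23 (noncystic Pkd2 Δ17/Δ17), 25 and 26 (cystic Pkd2 +/+) and 28 (cystic Pkd2 Δ17/Δ17). The groups were therefore not balanced for Xist.

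Wfdc15b stood at 178, 179 and 149 CPM in the 3 noncystic Pkd2 +/+ mice (168.7 ± 17, SD, n = 3). In noncystic Pkd2 Δ17/Δ17 mice it stood at 174, 137 and 150.3 CPM (154 ± 18.8, n = 3). The noncystic groups overlapped. Cystic Pkd2 +/+ mice had 54.1, 54.3 and 52.4 CPM (53.6 ± 1.06, n = 3). Cystic Pkd2 Δ17/Δ17 mice had 89.4, 91.0 and 105 CPM (95.1 ± 8.52, n = 3), above every cystic Pkd2 +/+ mouse and below every noncystic mouse.

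Ppp1r1a was the most abundant of the 3 in CPM. It stood at 382, 368 and 368 CPM in noncystic Pkd2 +/+ mice (372 ± 7.96, n = 3) and at 376, 300.0 and 356 CPM in noncystic Pkd2 Δ17/Δ17 mice (344 ± 39.3, n = 3). Mouse 23, the second of these, was the lowest of the 6 noncystic animals, and the groups overlapped. Cystic Pkd2 +/+ mice had 103, 94.7 and 93.0 CPM (97.0 ± 5.55, n = 3), and cystic Pkd2 Δ17/Δ17 mice had 152, 183 and 173 CPM (169 ± 15.8, n = 3). As with Wfdc15b, the 3 cystic motif-deleted kidneys filled a range of their own between the other cystic kidneys and the noncystic ones.

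Lrrc66 was far less abundant. It stood at 17.4, 16.5 and 19.2 CPM in noncystic Pkd2 +/+ mice (17.7 ± 1.39, n = 3) and at 20.6, 21 and 21.6 CPM in noncystic Pkd2 Δ17/Δ17 mice (21.1 ± 0.515, n = 3). Here the noncystic groups did not overlap, with the motif-deleted mice higher. Cystic Pkd2 +/+ mice had 4.76, 4.36 and 4.14 CPM (4.42 ± 0.314, n = 3), from 88 counts upward in a library, and cystic Pkd2 Δ17/Δ17 mice had 11.1, 9.98 and 9.67 CPM (10.2 ± 0.756, n = 3). Its order of groups was therefore cystic Pkd2 +/+, cystic Pkd2 Δ17/Δ17, noncystic Pkd2 +/+ and noncystic Pkd2 Δ17/Δ17, with no overlap between neighbours in that order. The motif-deleted mice were likewise all higher for 8.79% of all genes between the cystic groups and 5.69% between the noncystic groups. For cystic Pkd2 Δ17/Δ17 against noncystic Pkd2 +/+ mice no such share was computed.

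**Figure D1:**
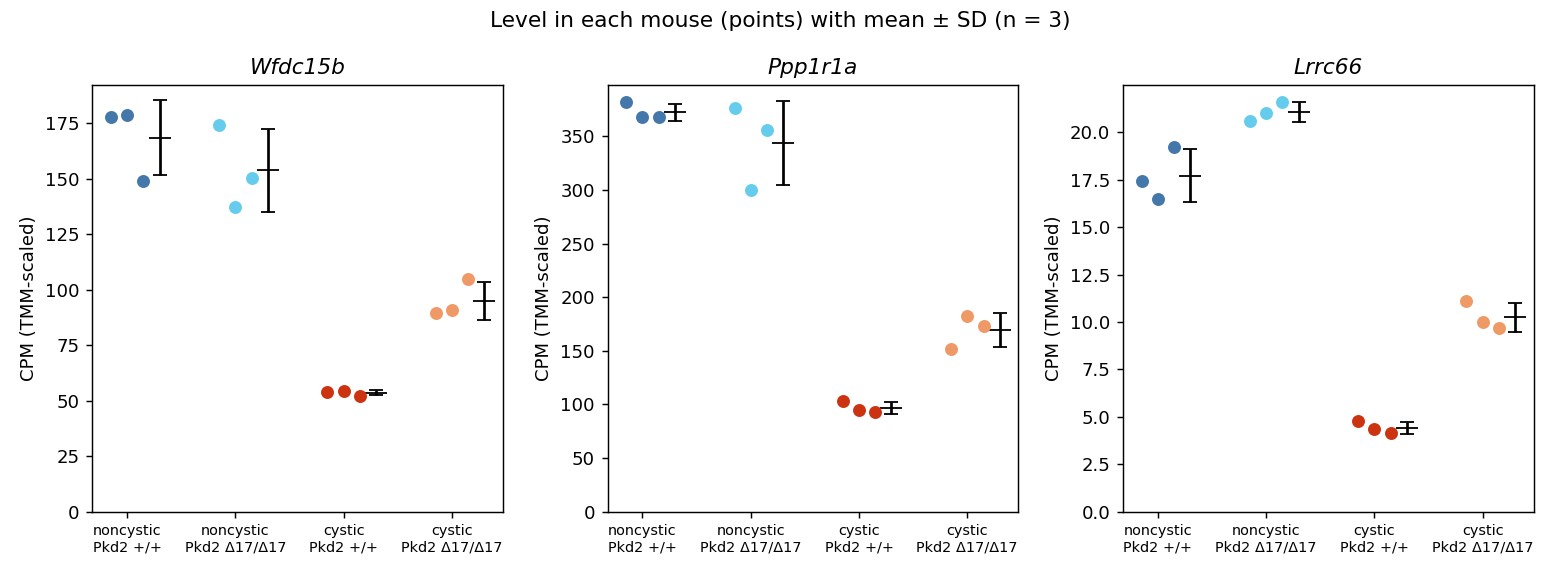
CPM of Wfdc15b, Ppp1r1a and Lrrc66 (vertical axes, from 0) in each of the 12 mice (points) with the mean and SD of each group of 3 (bar at the side). In each gene the cystic Pkd2 Δ17/Δ17 mice lie above the cystic Pkd2 +/+ mice and below all 6 noncystic mice. The noncystic groups overlap for Wfdc15b and Ppp1r1a and not for Lrrc66.

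Levels of different genes are compared per length of their annotated exons, merged over transcripts. In noncystic Pkd2 +/+ kidneys Wfdc15b had 295 and Ppp1r1a 285 RPKM (CPM per kilobase of exon), ranks 155 and 166 among 24631 genes, while Lrrc66 had 5.47 RPKM and rank 7617. The CPM order of Wfdc15b and Ppp1r1a thus comes with merged exons of unequal length, 572 and 1306 bases. In cystic Pkd2 +/+ kidneys the ranks were 485, 628 and 12607. In cystic Pkd2 Δ17/Δ17 kidneys they were 232, 318 and 10044. Wfdc15b and Ppp1r1a stayed among the abundant mRNAs of the kidney in all 4 groups, and Lrrc66 did not belong to them in any.

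Between cystic and noncystic Pkd2 +/+ kidneys, a difference that chose the genes, Wfdc15b was 3.14-fold lower (log2 fold change -1.65, SE 0.10). Ppp1r1a was 3.84-fold lower (-1.94, SE 0.10) and Lrrc66 4.0-fold lower (-2.0, SE 0.12). For all 3 genes every cystic mouse lay below every noncystic mouse, as did 19.7% of all genes tested in this direction. In bulk kidney, fewer cells of a type and less RNA per cell cannot be told apart.

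Between the cystic groups, the other difference that chose them, the motif-deleted kidneys held 1.77-fold more Wfdc15b (0.83, SE 0.10), 1.74-fold more Ppp1r1a (0.80, SE 0.09) and 2.31-fold more Lrrc66 (1.21, SE 0.12). Groups that did not overlap in this direction were found for 8.79% of all genes. Of the 24642 genes, 274 (1.11%) were lower in cystic Pkd2 +/+ kidneys and higher with the deletion, both at an adjusted p under 0.05. Among these 274, ordered by the size of the rise, Lrrc66 ranked 25, Wfdc15b 73 and Ppp1r1a 82. Ordered by the size of the fall they ranked 15, 26 and 16. The falls were thus near the top of the set, while the rises of Wfdc15b and Ppp1r1a lay closer to its median of 0.64 on the log2 scale.

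The share of the log2 distance between cystic and noncystic Pkd2 +/+ kidneys that was covered in cystic Pkd2 Δ17/Δ17 kidneys was 60.4% for Lrrc66, 49.9% for Wfdc15b and 41.2% for Ppp1r1a. The median of the 274 genes was 63.4%, with quartiles of 47.2% and 87.4%, so all 3 genes lay below the median and Ppp1r1a below the lower quartile. By this measure, ranks were 147, 189 and 230 of 274. No cystic mouse reached the noncystic range in any of the 3 genes.

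The first comparison the choice did not use asked whether cystic and noncystic kidneys differed when both lacked the Pkd2 motif. All 3 genes were lower in the cystic kidneys in the edgeR quasi-likelihood fit, with p-values adjusted by Benjamini-Hochberg over 24642 genes, of which 10.2% were called lower. Wfdc15b was 1.62-fold lower (-0.69, SE 0.10, 95% interval -0.92 to -0.47, adjusted p = 5.95e-05). Ppp1r1a was 2.03-fold lower (-1.02, SE 0.09, interval -1.24 to -0.81, adjusted p = 1.47e-06). Lrrc66 was 2.06-fold lower (-1.04, SE 0.12, interval -1.31 to -0.77, adjusted p = 8.00e-06). In each gene all 3 cystic mice lay below all 3 noncystic mice, which held for 17.7% of all genes. These cystic mice are the same that were chosen as high, so the choice worked to make these differences smaller.

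The second such comparison asked what the deletion did in noncystic kidneys. Its noncystic Pkd2 +/+ mice are the same that were chosen as high, so the choice worked to push these differences down. In edgeR's quasi-likelihood test, 1 of the 24642 genes was called there (0.00406%, lower), 1556 had an unadjusted p under 0.05, and none of the 3 genes was called. Wfdc15b differed by -0.13 (SE 0.10, interval -0.35 to 0.09, adjusted p = 0.812) and Ppp1r1a by -0.11 (SE 0.09, interval -0.33 to 0.10, adjusted p = 0.836). Lrrc66 differed by 0.25 (SE 0.11, interval -0.01 to 0.51, unadjusted p = 0.0416, adjusted p = 0.771), and its motif-deleted mice were all higher, as were those of 5.69% of all genes. This interval spans both signs although the unadjusted p is under 0.05, because the intervals use fewer degrees of freedom than the test. The difference of the deletion effects between cystic and noncystic kidneys was 0.96 (SE 0.14) for Wfdc15b, 0.92 (SE 0.13) for Ppp1r1a and 0.96 (SE 0.17) for Lrrc66, without a test because it contains the contrast that chose the genes.

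**Figure D2:**
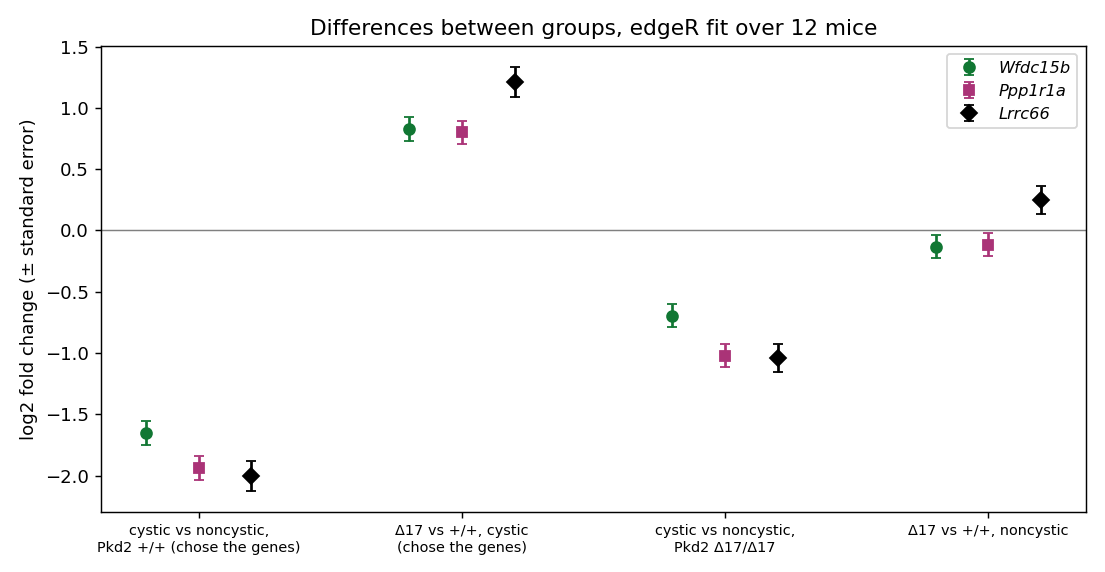
Log2 fold changes with standard errors (vertical axis) of the 3 genes in 4 comparisons of groups, from the fit over 12 mice. The pair of comparisons on the left chose the genes. On the right, all 3 genes are below 0 between cystic and noncystic Pkd2 Δ17/Δ17 kidneys (-0.69 to -1.04), and lie between -0.13 and 0.25 for the deletion in noncystic kidneys.

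Markers of the thick ascending limb gave the nearest context. The list had 14 genes, all tested. In cystic against noncystic Pkd2 +/+ kidneys 9 were called lower and 3 higher, with a median log2 fold change of -0.95, where 14.2% of all genes were called lower and 16.9% higher. The deletion in cystic kidneys raised 8 of the 14 and lowered none (median 0.67), where 1.19% of all genes were called higher and 1.04% lower. In noncystic kidneys none of the 14 was called by edgeR (median 0.02), by DESeq2 or by limma-trend, and none had an unadjusted p under 0.05 in edgeR. The difference between both deletion effects, tested as an interaction in edgeR, was called for none of the 14 (8 had an unadjusted p under 0.05) and for 3 of all 24642 genes (0.0122%, with 2053 at an unadjusted p under 0.05), so a difference between cystic and noncystic kidneys in the effect on these markers was not shown. Their summed level was 5201 to 5993 CPM in noncystic Pkd2 +/+ mice, 5875 to 6915 in noncystic Pkd2 Δ17/Δ17 mice, 2336 to 3038 in cystic Pkd2 +/+ mice and 4357 to 4606 in cystic Pkd2 Δ17/Δ17 mice. The list thus moved with the 3 genes, and its part in their differences was not tested.

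Among the 8 genes that rose were Slc12a1, the target of loop diuretics, from 854 to 1624 CPM (log2 fold change 0.93, SE 0.10, adjusted p = 0.000704), and Egf, which the distal nephron secretes, from 209 to 455 CPM (1.12, SE 0.15, adjusted p = 0.0018). Tmem207 had the steepest rise of the list, from 5.52 to 13.5 CPM (1.29, SE 0.14, adjusted p = 0.000594), and the tight junction gene Cldn10 went from 88.1 to 143 CPM (0.70, SE 0.10, adjusted p = 0.00216). Bsnd (0.74, adjusted p = 0.00481), the prostaglandin receptor Ptger3 (0.65, adjusted p = 0.00393) and the calcium sensor Casr (0.80, adjusted p = 0.0384) also rose. Segment markers did not all follow. Umod, the gene for uromodulin, differed between cystic and noncystic Pkd2 +/+ kidneys by -0.10 (adjusted p = 0.689), with 870 and 935 CPM. The claudins Cldn16, Cldn19 and Cldn14 were higher in cystic kidneys, by 0.33, 0.50 and 2.2 (adjusted p = 0.0118, 0.00108 and 0.00596), Cldn14 at 20 counts or fewer in each library. Of the markers named, Slc12a1, Egf, Cldn10, Umod, Cldn19, Casr and Cldn14 overlap other annotated genes, which the counting may not separate.

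**Figure D3:**
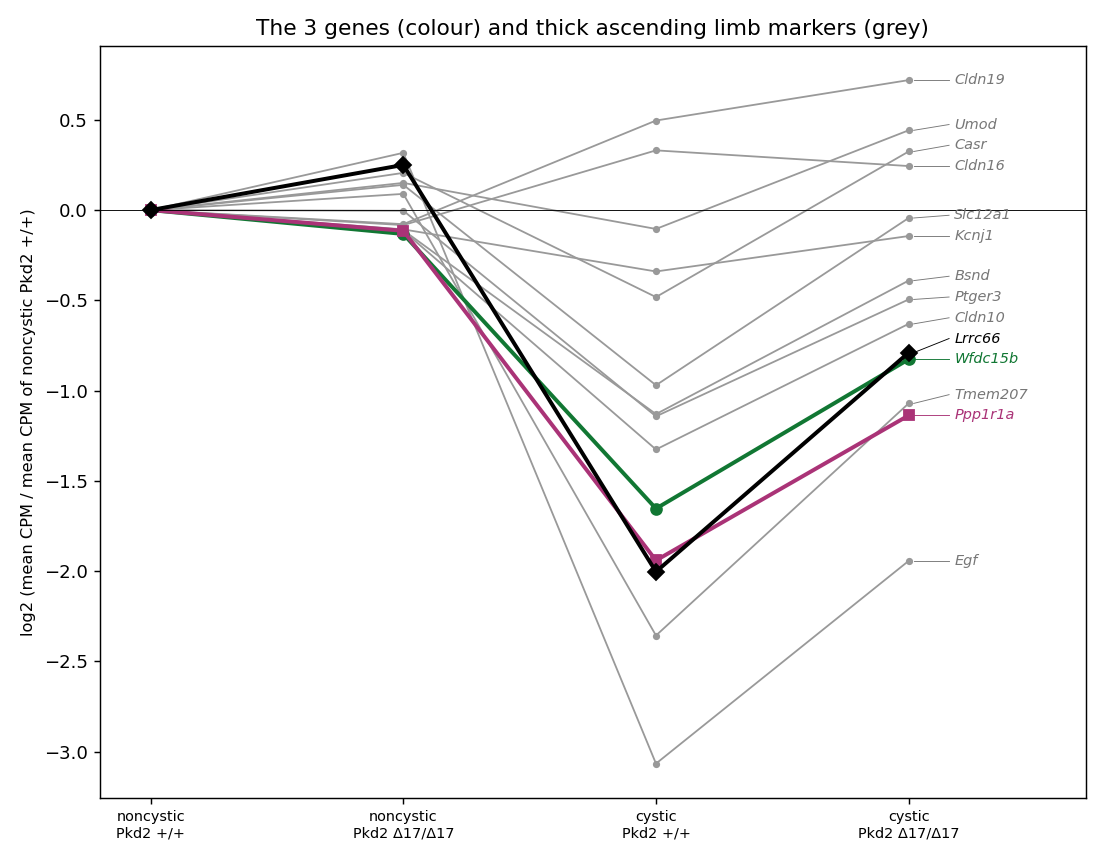
Mean CPM of each group relative to noncystic Pkd2 +/+ kidneys (vertical axis, log2), for the 3 genes in colour and 11 of the 14 thick ascending limb markers in grey (Cldn14, with under 100 counts, is among those left out). Lines join the group means of a gene and are not a time course. In cystic Pkd2 +/+ kidneys the 3 genes lie below all markers drawn except Tmem207 and Egf.

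Relative to the median log2 level of the 14 thick ascending limb markers in the same mouse, the 3 genes were lower in cystic kidneys. The log2 level of Wfdc15b minus that median was 0.46 ± 0.05 (SD, n = 3) in noncystic Pkd2 +/+ mice and 0.30 ± 0.14 in noncystic Pkd2 Δ17/Δ17 mice. It was -0.45 ± 0.17 in cystic Pkd2 +/+ mice and -0.35 ± 0.21 in cystic Pkd2 Δ17/Δ17 mice, where the cystic groups overlapped. For Ppp1r1a the values were 1.61 ± 0.08, 1.46 ± 0.09, 0.40 ± 0.21 and 0.48 ± 0.19 in the same order, and the cystic groups overlapped again. For Lrrc66 they were -2.78 ± 0.20, -2.56 ± 0.11, -4.02 ± 0.20 and -3.55 ± 0.06. In Lrrc66 the motif-deleted cystic mice all lay above the other cystic mice by this measure, from -3.62 to -3.50 against -4.25 to -3.87. These values are a description with no test, since differences between the same groups chose the genes and the markers themselves moved in both directions. The median is over levels, so the markers at its middle can change between groups. By mean CPM these were Bsnd and Cldn19 (135 and 109) in noncystic Pkd2 +/+ kidneys. In both cystic groups they were Cldn10 and Bsnd. The median was 6.82 to 6.99 in noncystic Pkd2 +/+ and 6.83 to 6.99 in cystic Pkd2 Δ17/Δ17 mice, whose summed level was lower. The values thus depend in part on which markers held the middle.

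Markers of other cell types were called too, in comparisons where 14.2% of all genes were lower and 16.9% higher with disease, and 1.19% higher and 1.04% lower with the deletion in cystic kidneys. All 10 proximal tubule markers were lower in cystic than in noncystic Pkd2 +/+ kidneys (median -1.25), and 3 of them rose with the deletion in cystic kidneys (median 0.31). Of 8 distal convoluted tubule markers, 6 were lower and 1 higher with disease (median -1.14), and none was called for the deletion in cystic kidneys (median 0.21, 2 at an unadjusted p under 0.05 in edgeR). All 8 macrophage markers were higher in cystic kidneys (median 1.79) and 4 were lower with the deletion (median -0.59), with a summed level of 184 to 192 CPM in noncystic Pkd2 +/+, 455 to 623 in cystic Pkd2 +/+ and 318 to 438 in cystic Pkd2 Δ17/Δ17 mice. Of 6 tubule injury genes, 5 were higher with disease (median 1.65) and 3 lower with the deletion (median -1.05). Podocyte (5 of 6 lower, 1 higher), endothelium (5 of 8 lower), intercalated cell (3 of 7 lower, 1 higher), principal cell (4 of 8 higher) and fibroblast markers (4 of 8 higher, 2 lower) were also called with disease. For the deletion in cystic kidneys edgeR called none of these, with an unadjusted p under 0.05 for 4 podocyte, 3 endothelium, 1 intercalated cell, 4 principal cell and 2 fibroblast markers. Other settings called up to 4 principal cell markers lower and up to 2 podocyte and 2 intercalated cell markers higher. The counts under the deletion rested on few mice. Without mouse 27 or mouse 28 no proximal tubule marker was called, without mouse 27, 28 or 29 no macrophage marker, and without mouse 29 no injury gene. Without mouse 26 each of these counts was 1, as were those for proximal tubule without mouse 29 and for injury without mouse 28. The part of these cell types in the levels of the 3 genes was not tested.

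Of 20 other WAP domain genes listed, 10 passed the cutoff. For the deletion in cystic kidneys edgeR and DESeq2 called none of the 10 (2 had an unadjusted p under 0.05 in edgeR), which is near the 1.19% higher and 1.04% lower of all genes and does not set the family apart. With disease 2 were higher and 1 lower. Wfdc2, also secreted by tubule epithelium, was the abundant member and went the other way with disease, from 246 to 322 CPM (0.39, SE 0.10, adjusted p = 0.0082). Wfdc17 was also higher (1.68, adjusted p = 0.0108, 43 counts or fewer in each library). Wfdc16 was lower in cystic kidneys both in Pkd2 +/+ mice (-1.17, adjusted p = 0.00113) and in Pkd2 Δ17/Δ17 mice (-1.23, adjusted p = 0.00112). Wfdc15a, the nearest WAP domain gene on chromosome 2, had at most 1 count in a library.

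Genes that act with inhibitor-1 gave another view of Ppp1r1a. The list held 22 tested genes for the catalytic and other regulatory subunits of protein phosphatase 1, for protein kinase A and for calcineurin. In cystic against noncystic Pkd2 +/+ kidneys 5 were called lower and 4 higher (median -0.02), near the 14.2% and 16.9% of all genes, and the 4 became 1 without any of mice 19, 21, 22, 23, 24, 26 or 27 and 2 without mouse 29. The deletion in cystic kidneys raised 1, where 1.19% of all genes were called higher. That gene was Ppp1r1b, which encodes DARPP-32, the closest relative of inhibitor-1 and likewise an inhibitor of protein phosphatase 1. Ppp1r1b stood at 47.7 CPM in noncystic Pkd2 +/+, 53.9 in noncystic Pkd2 Δ17/Δ17, 8.27 in cystic Pkd2 +/+ and 17.4 in cystic Pkd2 Δ17/Δ17 kidneys. In cystic Pkd2 +/+ kidneys it fell by 2.52 on the log2 scale (SE 0.12, adjusted p = 2.35e-09) and rose with the deletion in cystic kidneys by 1.07 (SE 0.12, adjusted p = 0.000704). Its locus overlaps an annotated antisense transcript.

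The enzyme subunits mostly differed by small amounts. Ppp1ca, a catalytic subunit of protein phosphatase 1, was higher by 0.25 (adjusted p = 0.0407), and the calcineurin subunits Ppp3ca and Ppp3r1 were lower by 0.35 and 0.33 (log2 fold changes -0.35 and -0.33, adjusted p = 0.00459 and 0.00453). The kinase A regulatory subunit Prkar2b had the largest change after Ppp1r1b among the genes called, from 50.5 to 14.3 CPM (-1.82, SE 0.38, adjusted p = 0.00142). The other regulatory subunits Prkar2a (-0.26, adjusted p = 0.0157) and Prkar1a (0.21, adjusted p = 0.0399) moved in opposite directions. Higher too were the inhibitor genes Ppp1r14b (0.41, adjusted p = 0.0446) and Ppp1r14c (1.47, adjusted p = 0.00874), the latter with 38 counts or fewer in each library. Scaling by library totals, which shifts the median gene up by 0.16 in this comparison, turned the split of 5 lower and 4 higher into 2 lower and 8 higher, so the small changes hold relative to the TMM scaling.

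**Figure D4:**
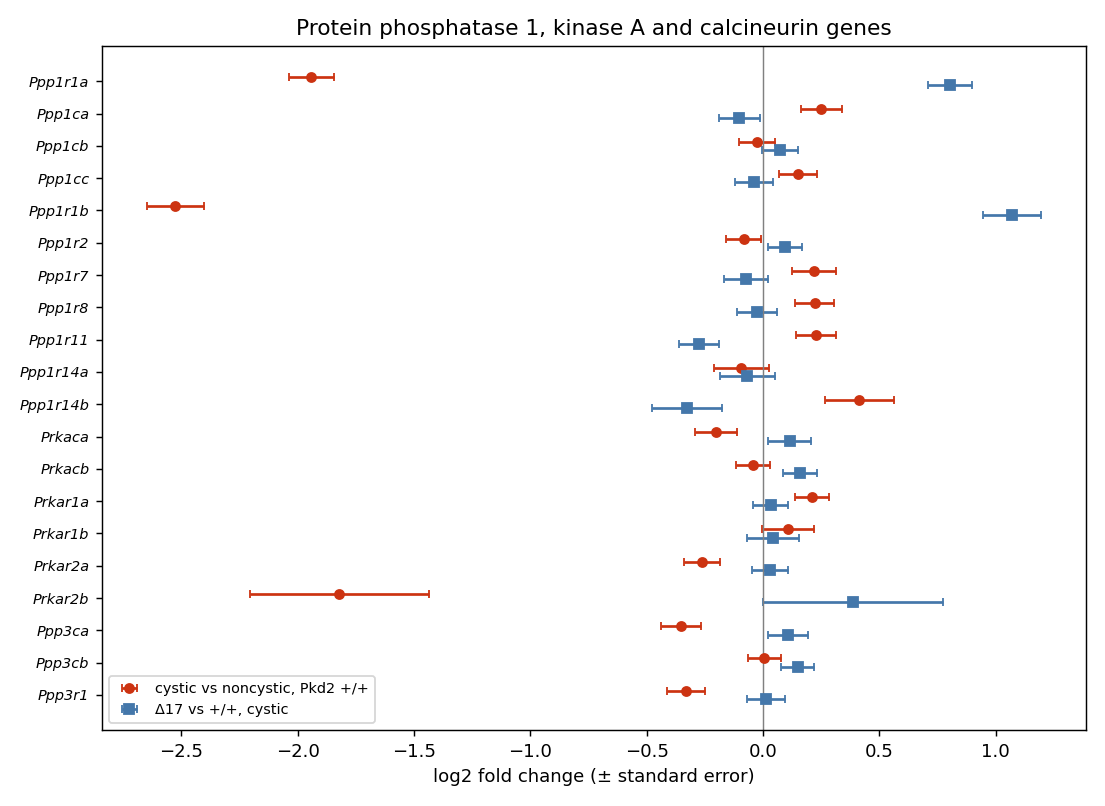
Log2 fold changes with standard errors (horizontal axis) for Ppp1r1a and 19 of the 22 genes of protein phosphatase 1, kinase A and calcineurin (3 with under 100 counts in a mouse are left out). Circles show cystic against noncystic Pkd2 +/+ kidneys and squares the deletion in cystic kidneys. Ppp1r1a (-1.94 and 0.80) and Ppp1r1b (-2.52 and 1.07) have the lowest values with disease among the genes drawn. Ppp1r1b is the one listed gene called for both differences, and Prkar2b (-1.82 and 0.39) was called for the first alone.

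Of the 12 nearest protein-coding genes, 2 on each side of each gene, 6 passed the cutoff and none was called by edgeR for the deletion in cystic kidneys (2 had an unadjusted p under 0.05), where 1.19% of all genes were called higher and 1.04% lower, so the count says little about the neighbours. Sgcb, whose end lies 223 bases upstream of Lrrc66 on the same strand, stood at 23.4 CPM in noncystic and 27.6 CPM in cystic Pkd2 +/+ kidneys (0.24, SE 0.11, adjusted p = 0.107). It differed by -0.05 (SE 0.10, adjusted p = 0.887) with the deletion in cystic kidneys. Pde1b, which ends 227 bases from the end of Ppp1r1a on the opposite strand, was lower in cystic kidneys by 0.54 (log2 fold change -0.54, SE 0.19, adjusted p = 0.037) and differed by 0.23 (adjusted p = 0.646) with the deletion. Cwh43, near Lrrc66 (log2 fold change -1.98, adjusted p = 9.66e-07), and Dcun1d4 (-0.28, adjusted p = 0.0486) were lower with disease, and Nckap1l, near Ppp1r1a, was higher by 1.31 (adjusted p = 7.20e-06). Between motif-deleted kidneys Cwh43 (-1.79, adjusted p = 6.50e-06) and Nckap1l (0.77, adjusted p = 0.00183) were again called (12.8% of all genes were called higher there), with Glycam1, which rested on 199 counts in mouse 22 and at most 2 in any other. The 4 neighbours of Wfdc15b had at most 1 count in a library.

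The promoter of Wfdc15b is shown around the only match to a searched motif. Of the 3 genes, Wfdc15b and Lrrc66 had an entry in the RefSeq table of promoters (a window around the start site, GRCm38.p6), and they were searched on both strands for AAGGTCA, an element bound by estrogen-related and other nuclear receptors, and for GTTAAT, part of the element bound by HNF1 factors. The motifs do not overlap each other. The motifs were picked with the results known. Capitals mark the match, which starts 209 bases before the start site.
Wfdc15b promoter: caagctactAAGGTCAtcacgaaca
This stretch lies at chr2:164221857-164221881 on the minus strand. AAGGTCA was found in 4.72% of 32851 promoters and GTTAAT in 7.10%. No other match was found in either promoter.

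As a description of likeness, Pearson's r of log2 CPM over the 12 mice was computed against 13690 genes with a mean log2 CPM of at least 1. These values rest mostly on the group differences that chose the genes, and mice of a group share them. The gene nearest to Wfdc15b was Ppp1r1a (r = 0.986), followed by Cldn10 (0.985), Kng2 (0.983), Ndrg3 (0.982) and Rwdd4a (0.980). Nearest to Ppp1r1a were Pantr1 (0.993), Kng2 (0.990), Ndrg3 (0.987), Wfdc15b (0.986) and ENSMUSG00000097059 (0.985), a gene unnamed in the table. Nearest to Lrrc66 were Slco2a1 (0.989), Kng2 (0.986), Sugct (0.984), Pygm (0.984) and Slc19a3 (0.983). Kng2, a kininogen gene, was on all 3 lists. Tmem207 ranked 9, 9 and 6 for Wfdc15b, Ppp1r1a and Lrrc66, whereas Lrrc66 ranked 44 for Wfdc15b and 138 for Ppp1r1a. Not all thick ascending limb markers ranked high. In the same order of genes, Egf ranked 131, 50 and 47, and Slc12a1 1279, 1822 and 498. Umod gave r = 0.13, 0.08 and 0.25. Cldn16 (-0.79, -0.85 and -0.84) and Cldn19 (-0.67, -0.73 and -0.70) had negative values.

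Once group means were removed, the 3 genes showed no covariation that passed an exact permutation test within groups (two-sided, 1296 arrangements, 3 pairs). Wfdc15b and Ppp1r1a gave r = 0.58 (exact permutation p = 0.163, adjusted p = 0.244) and rho = 0.47 (p = 0.207, adjusted p = 0.310), and r = 0.53 without mice 21 and 22. These are the 2 mice farthest from the median deviation of Wfdc15b, the first gene of the pair, and the second gene was not used to pick them. Wfdc15b and Lrrc66 gave r = -0.55 (exact permutation p = 0.0941, adjusted p = 0.244) and rho = -0.58 (p = 0.106, adjusted p = 0.310), and r = -0.43 without the same 2 mice. Ppp1r1a and Lrrc66 gave r = -0.13 (exact permutation p = 0.689, adjusted p = 0.689) and rho = -0.10 (p = 0.75, adjusted p = 0.75), and r = 0.20 without mice 23 and 28, the 2 farthest for Ppp1r1a. The pattern that chose the 3 genes was one of group means. Mice of a group that were high for one gene were not shown to be high for another. With so few mice in a group, covariation within groups was neither shown nor excluded.

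**Figure D5:**
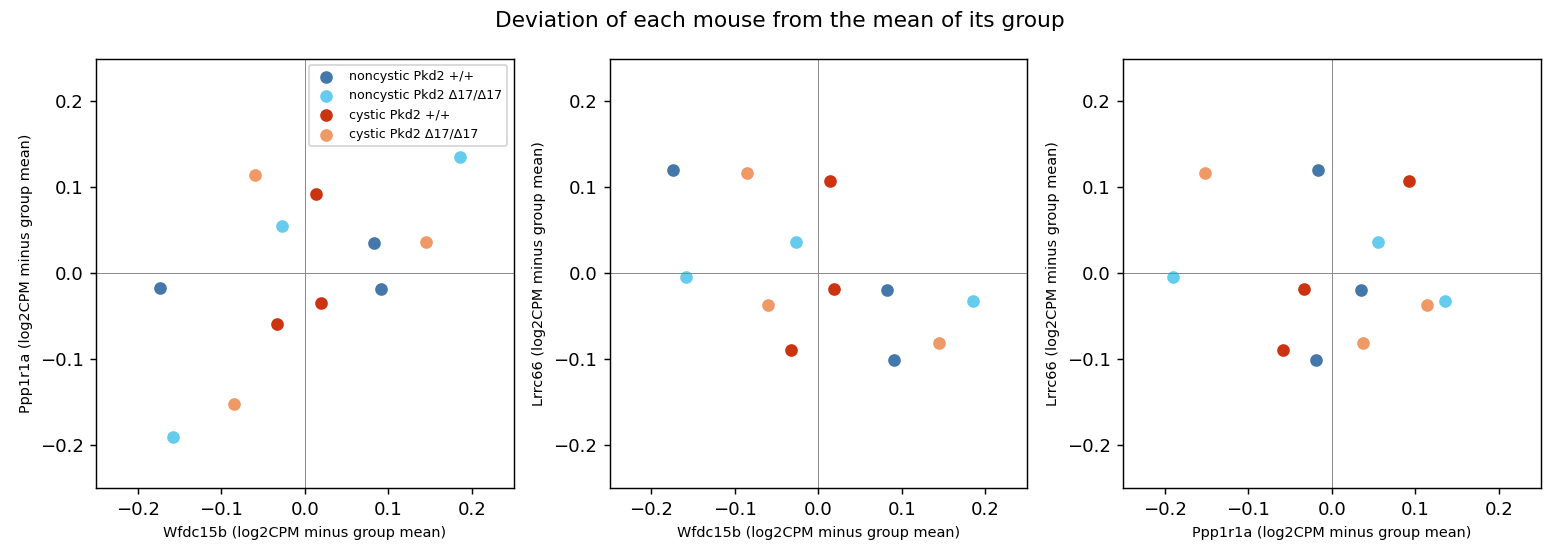
Log2 CPM of each of the 12 mice minus the mean of its group, for the 3 pairs of genes (axes, both in log2 units), coloured by group. The points lean upward for Wfdc15b with Ppp1r1a (r = 0.58) and downward for Wfdc15b with Lrrc66 (r = -0.55), and none of the 3 relations passed the permutation test.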

How the data were processed

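Whole kidneys of 12 mice were flash frozen and total RNA was sequenced. Per the labels and the methods of the study, the authors trimmed reads with Trim Galore 0.6.3 and aligned them to GRCm38 with STAR 2.5.3a, which counted reads per gene, and deposited raw counts for 54532 genes. The strand column used and the kit's strandedness are not given in the sources used here. From these counts, TMM factors were computed, genes with a mean log2 CPM under -3 (prior count 2) were removed as in the study's methods, and edgeR 4.0.16 (R 4.3.3) fitted one mean per group over 12 mice with a quasi-likelihood test (8 residual degrees of freedom) and Benjamini-Hochberg adjustment, called at 0.05. The study's own test, limma-trend (limma 3.58.1) on library totals, was an alternative, with DESeq2 1.42.0, because counts allow a count model. Standard errors are the log2 fold change over the square root of F. The 95% intervals use the 8 residual degrees of freedom alone, and the test, which shares spread across genes, has more. The intervals are therefore wider than the test implies. Unnamed rows held 0.0225% of counts. Libraries differed beyond sampling noise, so none was counted as a repeat. The p-values measure the spread between 3 mice per group. The members and lists were chosen with earlier results of these data known. Named genes were the members, all list genes, the 5 most correlated genes and the 2 nearest protein-coding genes on each side. Gene structures came from GENCODE M21 (GRCm38, 54495 of 54532 identifiers matched) and figures were drawn in Python 3.11.15. In simulated counts for the noncystic comparison (24642 genes, 200 changed), 98% of the 4-fold and 81% of the 2-fold changes were called by edgeR. Of the edgeR calls, 6.28% were unchanged genes. The changed genes were drawn from a higher range of mean level than the cutoff of -3. These shares therefore do not cover the weakest genes or changes under 2-fold. Not every marker of the lists is reported here by name.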

Additional observations from a re-analysis of the deposited data

How the results depend on the processing

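The 12 log2 fold changes of the 3 genes (4 comparisons each) were recomputed under 20 alternatives. For the 6 tested differences every value kept its direction and its side of the threshold. The other 6 differences chose the genes and have no call. Over all 240 values none reversed, and 6 of the untested ones moved by more than the spread between mice. These were the differences between cystic and noncystic Pkd2 +/+ kidneys under library totals in place of TMM, which gave -1.49 for Wfdc15b, -1.78 for Ppp1r1a and -1.84 for Lrrc66 in edgeR and -1.49, -1.78 and -1.81 in limma-trend. The tested differences were judged by direction and threshold alone, not against the spread between mice. Library totals in edgeR made those between motif-deleted kidneys smaller too. They went from -0.69 to -0.54 for Wfdc15b, from -1.02 to -0.87 for Ppp1r1a and from -1.04 to -0.89 for Lrrc66. The share of the distance covered by Lrrc66 became 66% with library totals in edgeR. Leaving out each mouse in turn gave ranges of -0.79 to -0.60, -1.13 to -0.95 and -1.10 to -1.0 for the differences between motif-deleted kidneys, with adjusted p of at most 0.000637, 7.83e-05 and 9.87e-05 over all alternatives. For the deletion in noncystic kidneys the ranges were -0.24 to -0.06, -0.20 to -0.03 and 0.19 to 0.31, with adjusted p from 0.462, 0.544 and 0.516 upward. With Xist as a covariate in edgeR, the differences between motif-deleted kidneys were -0.69, -1.04 and -1.03. Those for the deletion in noncystic kidneys were then -0.14, -0.10 and 0.23.

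Numbers of genes called depended more on the setting. For the deletion in cystic kidneys (549 genes) they were 1128 with DESeq2, 1639 without the filter and 167 with only the compared groups, and 118 to 861 with a mouse left out (861 without mouse 25, and 130, 127 and 118 without mice 27, 28 and 29). For the deletion in noncystic kidneys (1 gene) they were 3 with DESeq2, 124 without the filter, 2 with only the compared groups and 0 to 2 with a mouse left out. With edgeR none was called without mouse 19 (1256 at an unadjusted p under 0.05) or mouse 22 (2390), 2 without mouse 21 or mouse 28. The cause was not tested. Of the lists, added after seeing the data, the 5 phosphatase genes lower with disease became 2 under library totals in edgeR and in limma-trend, and the 1 raised by the deletion in cystic kidneys became 2 without the filter. The 8 thick ascending limb genes raised by it numbered 7 to 9 in every alternative.

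No paired analysis was possible because the replicate numbers in the labels all differ, so the groups share none. With 3 mice a group, Lrrc66 (88 to 393 counts per library) is the least precisely counted of the 3 genes.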
